A study of Homo sapiens with 6 samples.

Results

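The genes described here are 10 nuclear genes whose proteins copy the mitochondrial genome, transcribe it or keep its RNA: TFAM, TFB2M, POLRMT, TEFM, TWNK, POLG, POLG2, LRPPRC, SLIRP and PNPT1. They were chosen by symbol, and each of the 10 had 1 row among the 60676 genes of the count table. The data came from RNA-seq of TC71, a Ewing sarcoma cell line, in 2 groups of 3 libraries. Both groups carried a Dox-inducible lentiviral SMARTvector shRNA construct that also encodes GFP, and both received 0.5 µg/ml Dox over 3 days before RNA was taken. The shNTC+Dox cells expressed a non-targeting control shRNA, and the shEHD1+Dox cells expressed an shRNA against EHD1, a protein of endocytic recycling. The methods give 3 such shRNAs, and the paper took the lines with #2 and #3 forward for their robust knockdown. Which shRNA was used for these libraries is not given in the sources used here. Cells without Dox were not analysed here, so the comparison is between 2 lines under Dox and cannot tell the knockdown from other differences between those lines. The labels do not say whether the 3 libraries of a group came from separate cultures, so the p-values measure only the spread between these libraries, which may be technical. The comparison asks whether the factors that make and stabilize mitochondrial RNA were expressed at another level after the knockdown.

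Human mitochondrial DNA (mtDNA) is a small circle that encodes a handful of respiratory chain subunits with the tRNAs and rRNAs needed to translate them, and every protein that copies or reads it is imported from the cytosol. Transcription starts when TFAM bends the promoter DNA and recruits the RNA polymerase POLRMT together with TFB2M, which melts the DNA, and TEFM then keeps the polymerase moving over long distances. The helicase TWNK unwinds the circle for POLG, the DNA polymerase, and its accessory subunit POLG2. The long transcripts are cut into single mRNAs, which the LRPPRC-SLIRP complex binds, protects and holds ready for polyadenylation, while PNPT1 (PNPase) is the exoribonuclease that degrades mitochondrial RNA.

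Nuclear genes of this kind are known for promoters with sites of the transcription factors NRF1 and GABPA (also called NRF2), and YY1 sites occur in many of them, so the promoter windows of the members were searched for the letters of these sites. RefSeq promoters (GRCh38.p14, from 250 bases before to 50 after the start) were found for 9 of the 10 genes, all but TWNK. The search covered both strands. The NRF1 letters GCGCATGC were in 2 of the 9 windows, against 3.05% of 35116 promoters. The GABPA letters CCGGAAG were in 4 of the 9, against 10.3% of all promoters, and the YY1 letters AAGATGG were in 2 of the 9, against 5.84%. The windows below hold each match in capitals with its flanks, on the strand of the gene, because they show which members share a letter pattern. A match is a description of the letters and not a site shown to be bound.
TFB2M, NRF1, chr1:246566258-246566287, minus strand: ctccgctgttcGCATGCGCaggctctagtg
POLRMT, NRF1, chr19:633651-633680, minus strand: agcgtccaccgGCGCATGCcttcgcgcctc
POLRMT, NRF1, chr19:633542-633571, minus strand: ggcggcgcggGCGCATGCGCaggcgcgggc
POLRMT, GABPA, chr19:633613-633642, minus strand: cctgggagtctaCTTCCGGctggggtttcc
TEFM, GABPA, chr17:30906227-30906256, minus strand: agcacgcaggaaCCGGAAGtcaatggagga
POLG2, GABPA, chr17:64497096-64497125, minus strand: cgcagacatgcgCTTCCGGggtggggcctg
SLIRP, GABPA, chr14:77708015-77708044, plus strand: ataccctctgatCCGGAAGcagattctctc
LRPPRC, YY1, chr2:43996077-43996106, minus strand: aagtgcggttttCCATCTTccaacctaaaa
SLIRP, YY1, chr14:77707980-77708009, plus strand: ccacggccgctgCCATCTTccccatctcgc
SLIRP, YY1, chr14:77708097-77708126, plus strand: tgctttagtctgAAGATGGcggcctcagca

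POLRMT held 3 NRF1 matches, of which 2 overlap on opposite strands, beginning 24 and 22 bases before the start, in the capitals of its second window, and it also held 1 GABPA match. TFB2M, the partner of POLRMT at initiation, had its single NRF1 match 15 bases before the start. LRPPRC and SLIRP, the members of 1 complex, were the members with YY1 letters. LRPPRC held them 105 bases before the RefSeq start, and SLIRP 111 bases before its RefSeq start and again after it. The GENCODE model of LRPPRC begins further upstream, at chr2:43996226, so the LRPPRC match lies inside that model. The SP1 letters GGGCGG were in 6 of the 9 windows, against 45.0% of all promoters, and the E-box letters CACGTG were in 0 of 9, against 7.26%. TFAM held 5 SP1 matches and none of the NRF1, GABPA or YY1 letters in this window. The search took exact letters only, so a site spelled otherwise or outside the window was not seen. A window without a match is therefore not shown to lack a site.

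EHD1, the targeted gene, had 27.1, 28.0 and 26.4 CPM (counts relative to the library total, scaled by TMM) in the shNTC+Dox libraries and 7.55, 7.15 and 9.37 CPM in the shEHD1+Dox libraries, a log2 fold change of -1.76 (SE 0.12, adjusted p = 1.35e-04). Libraries held from 22711235 to 30582187 counts. Over the 16785 genes tested, 2910 (17.3%) passed an adjusted p of 0.05, of which 1441 (8.59%) were higher and 1469 (8.75%) lower in shEHD1+Dox. The 2910 became 1713 without shNTC+Dox replicate 1, 1341 without shEHD1+Dox replicate 1 and 1322 without its replicate 3. The chi-square per degree of freedom between replicates was at least 5.56, so no library pair differed by as little as sampling noise. The shNTC+Dox replicate 3 library stood apart from the other two of its group on the second principal component of log2 CPM, at -38.7 against 32.8 and 29.1, and it had the fewest counts. The shEHD1+Dox replicate 2 library had the lowest score of its group on the same component, at -24.2 against 2.09 and -1.01. The Ewing sarcoma markers CD99, NKX2-2, NR0B1, STEAP1 and FLI1 were all expressed. CD99 was higher (log2 fold change 0.33, adjusted p = 0.0293) and STEAP1 lower (-0.43, adjusted p = 0.00443) in shEHD1+Dox, and the others did not pass. Of the markers of other cell types, PTPRC, PECAM1 and EPCAM did not pass the filter on low counts, whereas the fibroblast gene DCN had 4.85 ± 0.53 CPM in shNTC+Dox against 2.40 ± 0.25 CPM in shEHD1+Dox and LUM had 1.90 ± 0.71 and 2.60 ± 0.28 CPM (SD, n = 3 each). DCN passed an adjusted p of 0.05 (log2 fold change -1.01, adjusted p = 0.00778) and LUM did not (0.44, adjusted p = 0.340). The part of DCN-expressing cells in the results was not tested.

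All 10 factors passed the filter on low counts, with between 132 (TEFM) and 14835 (LRPPRC) counts in a library. Fold changes are shEHD1+Dox over shNTC+Dox on the log2 scale, and p-values were adjusted over all genes tested. Of the 10, 2 passed the test, LRPPRC and SLIRP, both lower in shEHD1+Dox, and 0 rose. A share of 2 in 10 is close to the 17.3% of all genes that passed, so the number of calls does not set the list apart. None of the 10 reached the call with an added fold of at least 2, which 2.82% of all genes did. The log2 fold change was below 0 for 8 of the 10 and above 0 for TWNK and POLG, with a median of -0.11, beside a median of 0.0008 over all genes tested. In 4 of the 10 (POLRMT, TEFM, LRPPRC and SLIRP) the 3 libraries of each group did not overlap, beside 39.3% of all genes. The count of 2 was 0 without shEHD1+Dox replicate 1 and 1 when shNTC+Dox replicate 1, shEHD1+Dox replicate 2 or shEHD1+Dox replicate 3 was left out.

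**Figure D1:**
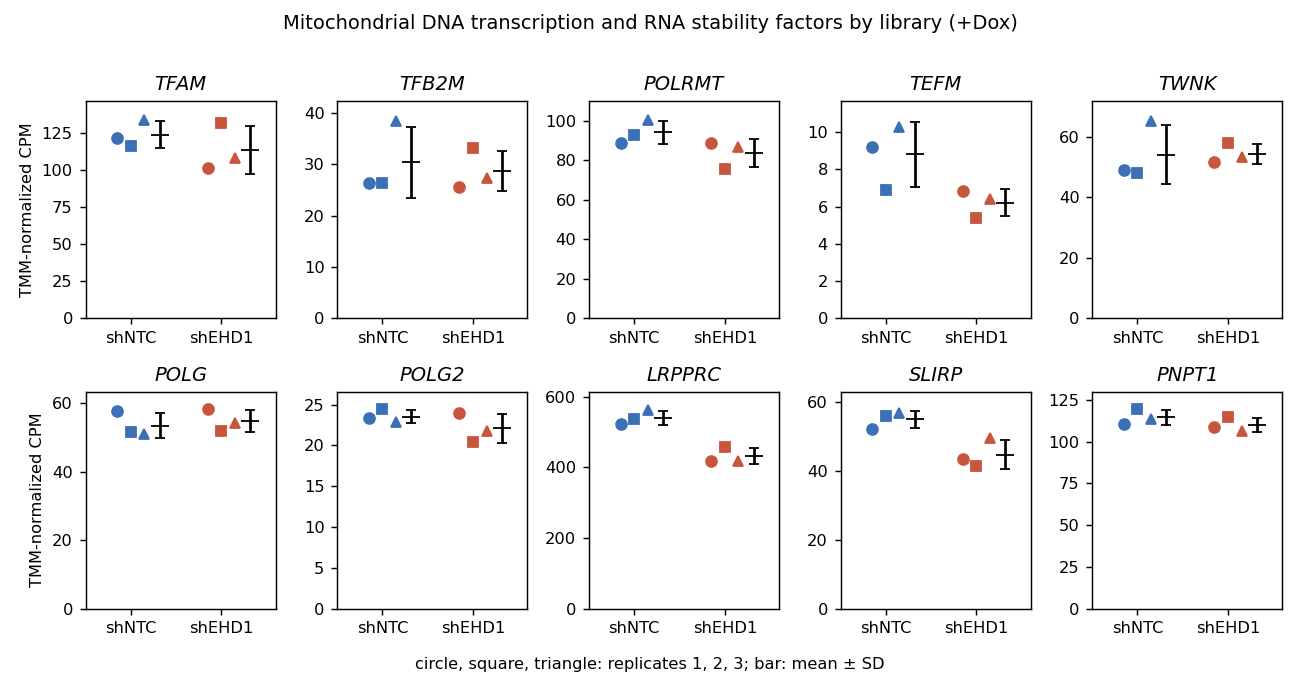
TMM-normalized CPM (vertical axes, from 0) of the 10 factors in each library, with shNTC+Dox in blue and shEHD1+Dox in red, symbols for the replicate numbers and bars for mean ± SD (n = 3 each). The groups separate for POLRMT, TEFM, LRPPRC and SLIRP and overlap for the other 6, and for TFAM, TFB2M and TWNK shNTC+Dox replicate 3 and shEHD1+Dox replicate 2 are the highest of their groups.

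The RNA-binding complex showed the differences that passed the test. LRPPRC, which binds mitochondrial mRNAs, had 522.7, 535.8 and 560.8 CPM in shNTC+Dox against 418.8, 457.6 and 417.1 CPM in shEHD1+Dox. The lowest shNTC+Dox library lay above the highest shEHD1+Dox library, and the spread within each group was small, with coefficients of variation of 3.58% and 5.32%. Mean LRPPRC levels were 539.8 ± 19.3 and 431.2 ± 22.9 CPM (SD, n = 3 each), so that shEHD1+Dox held 79.9% of the control level. Its log2 fold change was -0.32 (SE 0.07, 95% interval -0.48 to -0.17, adjusted p = 0.0143). LRPPRC kept its direction when each library was left out, but its adjusted p rose to 0.0749 without shEHD1+Dox replicate 1 and to 0.0707 when replicate 3 of that group was left out. Over all alternatives it ran from 7.92e-05 to 0.0749.

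SLIRP, the small RNA-binding partner that LRPPRC stabilizes, had 52.2, 55.9 and 57.0 CPM in shNTC+Dox against 43.5, 41.3 and 49.5 CPM in shEHD1+Dox. Here too the groups did not overlap, with means of 55.0 ± 2.48 and 44.8 ± 4.25 CPM. The log2 fold change was -0.30 (SE 0.09, 95% interval -0.49 to -0.10, adjusted p = 0.0450), close to the threshold. It lost the call without shNTC+Dox replicate 1 (adjusted p = 0.0711), without shNTC+Dox replicate 2 (0.108), and, of the knockdown libraries, without replicate 1 (0.157) or replicate 2 (0.117), with the direction kept each time, and its adjusted p over all alternatives ran from 0.0202 to 0.449. SLIRP shares 118 exon bases with SNW1, on the opposite strand, and 271 with C14orf178, which had no counts. SNW1 had a log2 fold change of 0.04 (adjusted p = 0.735), and SLIRP summed with it had -0.08 (adjusted p = 0.449, the highest of the alternatives). That sum holds more counts of SNW1 than of SLIRP.

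As partners in 1 complex, LRPPRC and SLIRP were also compared with each other. The log2 ratio of LRPPRC to SLIRP was 3.32, 3.26 and 3.30 in shNTC+Dox against 3.26, 3.47 and 3.07 in shEHD1+Dox, a difference in means of -0.02 (exact permutation p = 0.8, two-sided, adjusted p = 0.8 over 3 ratios). The shEHD1+Dox ratios were the more spread, with an SD of 0.20 against 0.03. With 3 libraries against 3 the exact permutation test cannot go below 0.1, so this p says little about how alike both genes are.

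PNPT1, the exoribonuclease on the decay side, did not pass the test. It had 110.4, 119.6 and 113.6 CPM in shNTC+Dox against 108.5, 114.9 and 106.4 CPM in shEHD1+Dox, with overlapping groups. Its log2 fold change was -0.06 (SE 0.07, 95% interval -0.21 to 0.09, adjusted p = 0.582). Its pseudogenes PNPT1P1 and PNPT1P2 held at most 2 counts in a library.

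Of the initiation factors, none passed the test. TFAM, the DNA-packaging activator, had 121.8, 116.2 and 133.8 CPM in shNTC+Dox against 101.2, 132.0 and 107.9 CPM in shEHD1+Dox. The value in shEHD1+Dox replicate 2 lay among those of the control, while replicates 1 and 3 lay below all 3 control libraries. The log2 fold change was -0.12 (SE 0.11, 95% interval -0.36 to 0.11, adjusted p = 0.455), and without shEHD1+Dox replicate 2 it was -0.24 (adjusted p = 0.0945, the lowest of the alternatives, which reach 0.833). TFB2M had 26.4, 26.4 and 38.4 CPM in shNTC+Dox against 25.5, 33.1 and 27.4 CPM in shEHD1+Dox, and its log2 fold change of -0.08 (SE 0.16, 95% interval -0.46 to 0.29, adjusted p = 0.770) turned to 0.12 without shNTC+Dox replicate 3 (adjusted p = 0.497, the lowest of the alternatives, which reach 0.995). POLRMT, the polymerase, had 89.0, 93.0 and 100.5 CPM in shNTC+Dox against 88.8, 75.4 and 86.7 CPM in shEHD1+Dox. The POLRMT groups were separated by a narrow gap between the first replicate of each, and the log2 fold change was -0.17 (SE 0.08, 95% interval -0.36 to 0.02, adjusted p = 0.199).

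TEFM, the elongation factor, had the lowest level and the largest fold change of the 10. It had 9.20, 6.90 and 10.3 CPM in shNTC+Dox against 6.81, 5.40 and 6.43 CPM in shEHD1+Dox. The groups did not overlap, but shNTC+Dox replicate 2 lay just above the highest shEHD1+Dox library, and the coefficient of variation in shNTC+Dox was 19.7%. The log2 fold change was -0.50 (SE 0.18, 95% interval -0.91 to -0.09, adjusted p = 0.0926), so the unadjusted interval leaves out 0 while the p adjusted over all genes misses the threshold. Without shNTC+Dox replicate 2 it passed (log2 fold change -0.65, adjusted p = 0.0445), and over all alternatives the adjusted p ran from 0.0445 to 0.222. The log2 ratio of POLRMT to TEFM was 3.43 ± 0.27 in shNTC+Dox against 3.74 ± 0.05 in shEHD1+Dox, a difference of 0.31 (exact permutation p = 0.3, two-sided, adjusted p = 0.45 over 3 ratios).

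The replication proteins also did not pass the test. TWNK, the helicase, had 48.9, 48.0 and 65.3 CPM in shNTC+Dox against 51.6, 57.9 and 53.3 CPM in shEHD1+Dox, with a log2 fold change of 0.01 (SE 0.12, 95% interval -0.27 to 0.28, adjusted p = 0.983). The 3 shEHD1+Dox values lay between the second and the highest of the control. POLG, the catalytic subunit, had 57.6, 51.6 and 51.0 CPM in shNTC+Dox against 58.3, 52.0 and 54.4 CPM in shEHD1+Dox, with a log2 fold change of 0.04 (SE 0.08, 95% interval -0.14 to 0.22, adjusted p = 0.771). POLG2, the accessory subunit, had 23.4, 24.4 and 22.8 CPM in shNTC+Dox against 24.0, 20.5 and 21.8 CPM in shEHD1+Dox, with a log2 fold change of -0.09 (SE 0.09, 95% interval -0.30 to 0.12, adjusted p = 0.541). Both groups overlapped for each of the 3 genes. The log2 ratio of POLG to POLG2 was 1.18 ± 0.11 in shNTC+Dox against 1.31 ± 0.03 in shEHD1+Dox, a difference of 0.14 (exact permutation p = 0.2, two-sided, adjusted p = 0.45 over 3 ratios).

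Some of the exons of the members are shared with other genes, and the library kit does not mark strand, so reads there cannot be told apart by strand. POLG shares 458 exon bases with FANCI, on the opposite strand, and 783 with POLGARF, on its own strand. POLGARF had no row in the count table, so no sum includes it. FANCI, a DNA repair gene, was lower in shEHD1+Dox, with a log2 fold change of -0.38 (adjusted p = 0.00924), and POLG summed with FANCI turned to -0.27 (adjusted p = 0.0199), where POLG alone gave 0.04. That sum holds more counts of FANCI than of POLG. TWNK shares 149 exon bases with MRPL43, a mitochondrial ribosomal protein gene (log2 fold change 0.29, adjusted p = 0.103), and LRPPRC shares 139 bases, 0.401% of its exons, with a long non-coding RNA. TEFM shares 542 exon bases with a non-coding gene that had 0 counts in every library, and POLRMTP1, a pseudogene of POLRMT, had 0.51 CPM in shNTC+Dox against 0.56 CPM in shEHD1+Dox.

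TFAM, TFB2M and TWNK shared a pattern over libraries that the groups do not explain. Genes outside this list, among them FLI1, FEN1, PDE12 and PPRC1, were also highest in shNTC+Dox replicate 3 and, within shEHD1+Dox, in replicate 2. The share of all genes with this order was not counted, so the pattern is not shown to be particular to these factors. In shNTC+Dox the replicate 3 library exceeded the mean of replicates 1 and 2 by 12.5% for TFAM, 45.4% for TFB2M and 34.8% for TWNK. In shEHD1+Dox the replicate 2 library exceeded the mean of replicates 1 and 3 by 26.2%, 25.3% and 10.4%. These are the 2 libraries with the lowest scores on the second principal component, and the part of that component in the values was not tested. LRPPRC followed the same order with smaller excesses of 5.96% and 9.49%, whereas SLIRP in shEHD1+Dox replicate 2 differed by -11.2% from the mean of the other two. POLRMT and TEFM were likewise highest in shNTC+Dox replicate 3 but differed in shEHD1+Dox replicate 2 by -14.1% and -18.5%. POLG and POLG2 were not highest in either of these libraries.

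**Figure D2:**
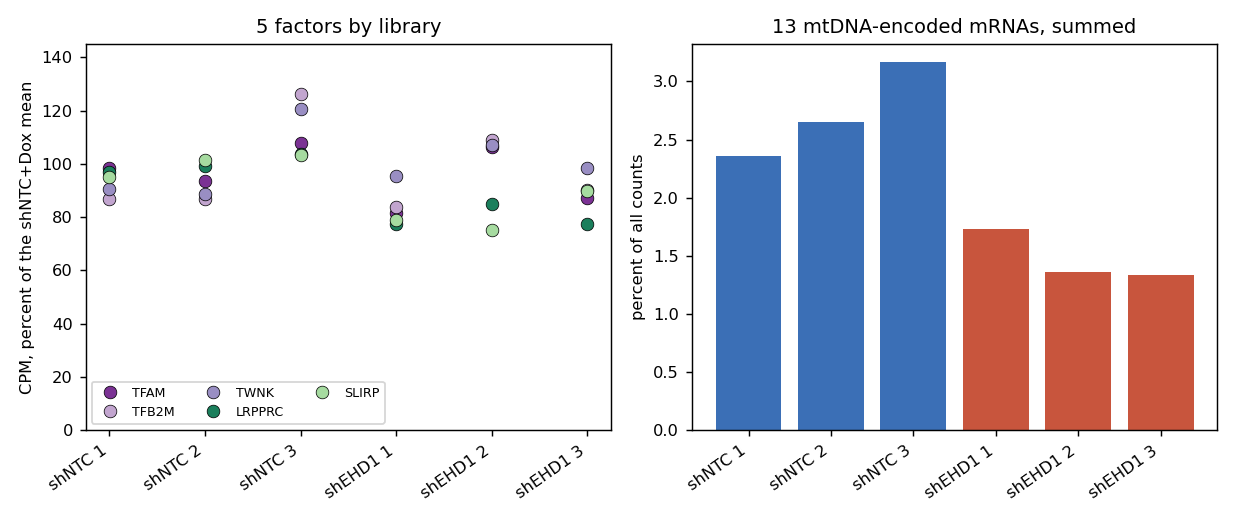
Left, CPM of 5 factors as a percent of the shNTC+Dox mean in each library; right, bars from 0 give the summed share of all counts on the 13 mtDNA-encoded mRNAs. TFAM, TFB2M and TWNK are highest in shNTC replicate 3 and, within shEHD1, in replicate 2, while the mRNA share lies between 2.36% and 3.16% in shNTC+Dox and between 1.33% and 1.73% in shEHD1+Dox.

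The RNA that these factors make and protect was lower in shEHD1+Dox. All 13 mtDNA-encoded mRNAs fell and passed the test, beside 8.75% of all genes called lower, and their groups did not overlap, beside 39.3% of all genes. Their median log2 fold change was -0.95, beside 0.0008 over all genes, and 4 of them (MT-ND1, MT-CO1, MT-ND5 and MT-ND6) fell at least 2-fold. That count of 4 was 1 (MT-ND1) without shNTC+Dox replicate 3, the library that stood apart, 8 without shNTC+Dox replicate 1 and 9 without shEHD1+Dox replicate 1. The 13 come from long shared transcripts and are not independent of each other. Because the library kit does not mark strand, reads on these genes, MT-ND6 among them, cannot be told apart by strand. MT-ND1, a subunit of complex I, fell most, with 950.1, 1056 and 1533 CPM in shNTC+Dox against 555.5, 480.6 and 425.0 CPM in shEHD1+Dox, a log2 fold change of -1.28 (SE 0.19, adjusted p = 0.00447). MT-ND2, also of complex I, had the median change of -0.95 (SE 0.16, adjusted p = 0.00757). MT-ND3, the least changed, had 408.5, 477.4 and 502.0 CPM in shNTC+Dox against 361.3, 285.8 and 347.0 CPM in shEHD1+Dox, a log2 fold change of -0.48 (SE 0.11, adjusted p = 0.0186). MT-ND3 missed the threshold without shNTC+Dox replicate 2 (adjusted p = 0.0505) and without shEHD1+Dox replicate 3 (adjusted p = 0.0541), and MT-ND6 without shEHD1+Dox replicate 2 (adjusted p = 0.0510).

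Both mitochondrial rRNAs had values below 0 as well. MT-RNR1, the small subunit rRNA, had 1320, 1255 and 1172 CPM in shNTC+Dox against 1009.9, 635.2 and 813.9 CPM in shEHD1+Dox, a log2 fold change of -0.61 (SE 0.15, adjusted p = 0.0289). It lost the call without shNTC+Dox replicate 1, 2 or 3 (adjusted p = 0.0805, 0.0653 and 0.0840) and without shEHD1+Dox replicate 3 (adjusted p = 0.0970). MT-RNR2, the large subunit rRNA, overlapped between the groups and did not pass (log2 fold change -0.52, SE 0.22, adjusted p = 0.145). The library kit selects polyadenylated RNA, so rRNA is read only as far as it was captured, and whether capture of mitochondrial RNA differed between the groups was not tested.

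As a share of all counts, the 37 genes of the mitochondrial genome took 3.57%, 3.88% and 4.04% in shNTC+Dox against 2.71%, 1.94% and 2.12% in shEHD1+Dox. The means were 3.83% ± 0.24 and 2.26% ± 0.40 (SD, n = 3 each; exact permutation p = 0.1, two-sided, the smallest that 3 against 3 can give). For the 13 mRNAs alone the share was 2.73% ± 0.41 in shNTC+Dox against 1.47% ± 0.22 in shEHD1+Dox (exact permutation p = 0.1, two-sided). The nuclear genome holds copies of mtDNA genes, to which reads of mitochondrial RNA can also align. The 394 rows of such copies took 0.151% ± 0.024 and 0.0787% ± 0.013 of counts, and so moved the same way. Fewer mitochondria and less RNA per mitochondrion cannot be told apart in these bulk samples, as with fewer cells of a type and less RNA per cell.

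**Figure D3:**
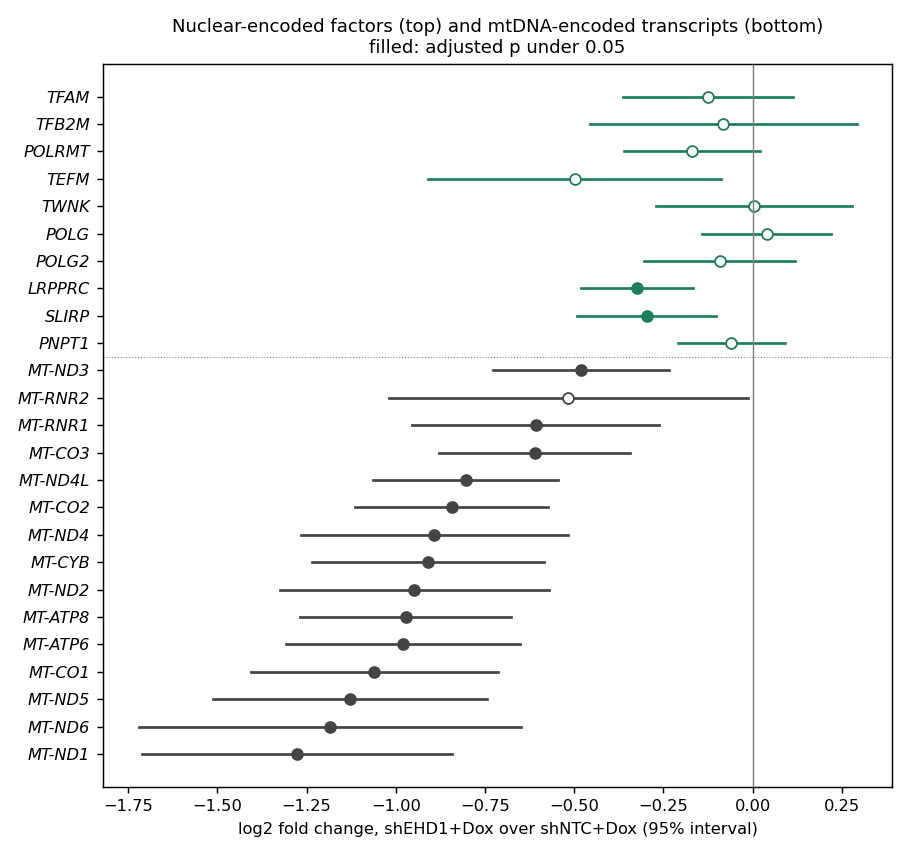
Log2 fold change, shEHD1+Dox over shNTC+Dox (horizontal axis), with its 95% interval for the 10 nuclear factors (green) and the 15 mtDNA-encoded mRNAs and rRNAs (grey), filled where the adjusted p was under 0.05. The factors lie between -0.50 and 0.04, and the mRNAs between -1.28 and -0.48.

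Set side by side, the log2 fold changes of 9 of the 10 factors were closer to 0 than that of the least changed mtDNA-encoded mRNA (MT-ND3, -0.48), with LRPPRC at -0.32 and SLIRP at -0.30. TEFM, which did not pass the test, was the exception at -0.50. The 95% intervals of 0 of the 10 factors reached the median of the 13 mRNAs, and the interval that came nearest to -0.95 was that of TEFM, with its lower bound at -0.91. The difference between factors and mRNAs was not itself tested.

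Levels can be compared between the genes only per length. Divided by the length of the Ensembl canonical transcript, the level in shNTC+Dox was highest for SLIRP at 146.4 ± 6.59 CPM per kilobase (SD, n = 3), followed by LRPPRC at 81.7 ± 2.93. PNPT1 (25.2 ± 1.03), POLRMT (25.0 ± 1.55) and TFAM (24.7 ± 1.79 CPM per kilobase) followed, and each overlapped its neighbour in the order, so these 3 did not differ beyond their spread. TFB2M (17.0 ± 3.88), TWNK (15.0 ± 2.69) and POLG2 (14.9 ± 0.51) formed a second group of overlapping neighbours. POLG lay below them at 12.0 ± 0.82 and TEFM lowest at 6.74 ± 1.33 CPM per kilobase. The order was the same in shEHD1+Dox for SLIRP, LRPPRC and TEFM, at 119.1 ± 11.3, 65.3 ± 3.47 and 4.76 ± 0.56 CPM per kilobase. Which length is used changes the order: LRPPRC has 34689 bases of merged exons over all its annotated transcripts and 6603 in the canonical one, and SLIRP 2631 and 376. Per kilobase of merged exons TFAM had the highest mean in shNTC+Dox at 23.5 ± 1.71, before PNPT1 at 21.6 ± 0.88 and SLIRP at 20.9 ± 0.94. Each overlapped its neighbour in the order, so neighbours did not differ beyond their spread. LRPPRC, at 15.6 ± 0.56, lay below POLRMT without overlap. Its mean was also below that of TFB2M, but only through shNTC+Dox replicate 3 of TFB2M (21.5). In replicates 1 and 2 TFB2M had 14.8, below the lowest LRPPRC library (15.1). On that scale POLG2 lay below POLG (5.18 ± 0.18 and 6.45 ± 0.44), out of the group with TFB2M and TWNK, and TEFM was again last with 3.33 ± 0.66.

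Around the 10 factors, other genes of mtDNA upkeep moved in both directions. Of 13 genes of mtDNA maintenance, 2 were higher and 3 lower past the test (5 of 13, beside 17.3% of all genes), with a median log2 fold change of -0.08. LIG3, the mitochondrial DNA ligase, rose by 0.52 (SE 0.08, adjusted p = 0.00437) and TOP1MT, the mitochondrial topoisomerase, by 0.29 (SE 0.07, adjusted p = 0.0266). FEN1, the flap endonuclease of nuclear and mitochondrial replication, had a log2 fold change of -0.72 (SE 0.20, adjusted p = 0.0457), TOP3A, which separates daughter circles, -0.56 (SE 0.10, adjusted p = 0.00780) and RNASEH1, which removes RNA primers, -0.26 (SE 0.07, adjusted p = 0.0449). FEN1, TOP3A, LIG3 and RNASEH1 also serve nuclear DNA. The count was 2 or 3 with any of 4 single libraries left out (shNTC+Dox replicate 1 or 2, or shEHD1+Dox replicate 1 or 3).

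The largest set was that of mitochondrial RNA processing and turnover, in which 1 of 23 genes was higher and 5 were lower past the test (6 of 23, beside 17.3% of all genes), with a median of -0.16. FASTKD1, a FASTK-family RNA-binding protein of mitochondria, had a log2 fold change of -0.45 (SE 0.09, adjusted p = 0.00915), MTERF2 of the mitochondrial termination factor family -0.42 (SE 0.10, adjusted p = 0.0234) and FASTKD3 -0.40 (SE 0.11, adjusted p = 0.0394). MTERF1 and MTERF4 were the other two that fell. REXO2, an oligoribonuclease that clears short RNA, rose by 0.31 (SE 0.08, adjusted p = 0.0301). The number past the test fell to between 1 and 3 with any of 5 single libraries left out, all but shNTC+Dox replicate 3.

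Of 9 nuclear regulators of these genes, PPARGC1A had no counts in any library, and of the 8 tested 2 were lower and 0 higher (beside 8.75% of all genes called lower and 17.3% called), with a median of -0.21. PPARGC1B, a coactivator of mitochondrial biogenesis, had 31.6, 30.6 and 31.6 CPM in shNTC+Dox against 18.2, 22.4 and 17.9 CPM in shEHD1+Dox, a log2 fold change of -0.68 (SE 0.11, adjusted p = 0.00375). ESRRA, the nuclear receptor it works with, had 40.2, 42.5 and 44.6 CPM in shNTC+Dox against 32.4, 29.6 and 32.0 CPM in shEHD1+Dox, a log2 fold change of -0.44 (SE 0.08, adjusted p = 0.00684). Of the factors whose letters were searched, NRF1, GABPA and YY1 are in this list and did not pass: NRF1 had -0.21 (adjusted p = 0.227), GABPA -0.07 (adjusted p = 0.530) and YY1 -0.14 (adjusted p = 0.224). Of 9 genes of mitochondrial nucleotide supply, 2 were higher and 0 lower, near the 17.3% of all genes called, with a median of 0.04. RRM2B, a p53-induced ribonucleotide reductase subunit, rose by 0.51 (SE 0.10, adjusted p = 0.0103) and DGUOK, the mitochondrial deoxyguanosine kinase, by 0.33 (SE 0.07, adjusted p = 0.0182), and 1 of them was left past the test with any of 4 single libraries left out (shNTC+Dox replicate 1 or 2, or shEHD1+Dox replicate 1 or 3).

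**Figure D4:**
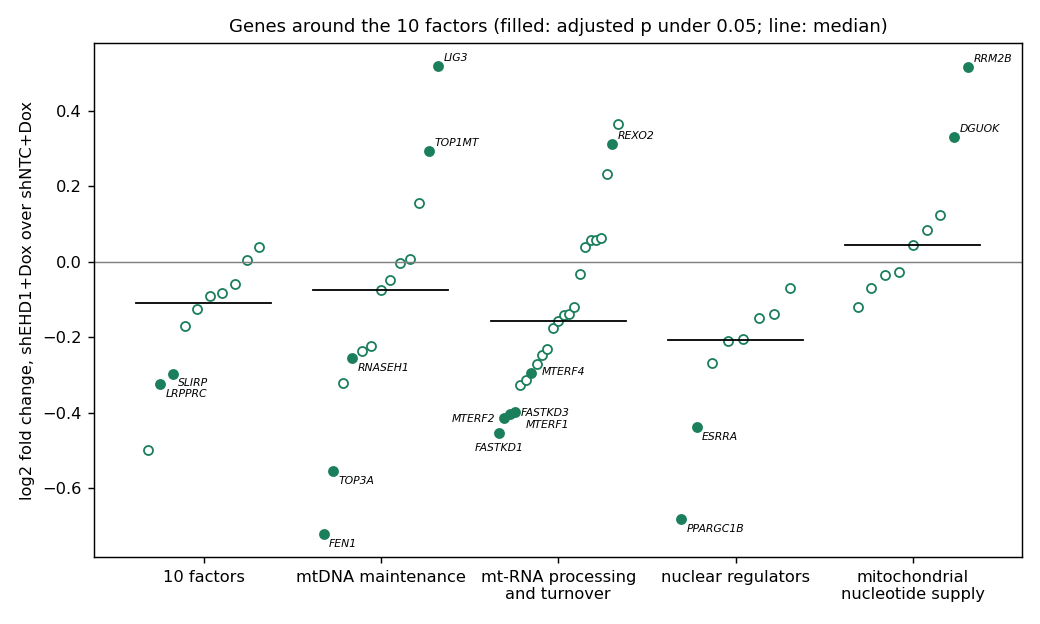
Log2 fold change, shEHD1+Dox over shNTC+Dox (vertical axis), of each tested gene in 5 lists, with filled points at an adjusted p under 0.05 and a line at the median of each list. The medians lie between -0.21 for nuclear regulators and 0.04 for nucleotide supply, and the named filled points include PPARGC1B at -0.68 and LIG3 at 0.52.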

How the data were processed

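RNA-seq was performed on TC71 cells (shNTC+Dox and shEHD1+Dox, 3 libraries each) with the TruSeq RNA Library Prep Kit v2 and paired ends. According to the methods, reads were aligned to hg38 with hisat2 and quantified with StringTie, while the submitters' processing notes name STAR 2.7.3a and DESeq2. What the authors deposited is a table of raw, unscaled gene counts. How the authors handled reads fitting several genes is not given in the sources used here. Groups and replicate numbers were taken from the labels. All columns belonged to a sample.

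Genes reaching 10 counts in 3 or more libraries were scaled by TMM and tested with the quasi-likelihood test of edgeR 4.0.16 (robust, R 4.3.3) with Benjamini-Hochberg adjustment over all 16785, called at an adjusted p under 0.05. Single values were compared by exact two-sided permutation tests. Intervals are 95%. Gene models came from GENCODE 44 (99.5% of identifiers found), and promoters from RefSeq. Members and lists were chosen with earlier results of these data known. Named genes are all members, their exon-sharing genes and pseudogenes with counts, the median and both extremes of the mtDNA-encoded mRNAs, both rRNAs and up to 3 rises and 3 falls past the test per other list. MTERF1, MTERF4 and 3 further mtDNA-encoded mRNAs were named after their values were seen. Tests were checked on simulated counts. Alternatives were DESeq2 size factors, DESeq2 1.42.0, other filters, the replicate block, scaling without mitochondrial rows, each library left out, a prior count of 0.5 in place of 2 and sums with exon-sharing genes. Canonical transcript length and adding nuclear copies were chosen after seeing the data.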

Additional observations from a re-analysis of the deposited data

How the results depend on the processing

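Of 130 values of the 10 factors under alternatives, 113 kept the direction and the call status. Most of these belong to factors that were not called. Of the called factors, LRPPRC kept both in 10 of 13 alternatives and SLIRP in 6 of 13. With every gene of 1 count or more kept, 1 of the 10 factors, 3 mtDNA maintenance genes and 0 rRNAs passed the test. The replicate numbers did not pair the libraries (correlations of 0.07, -0.06 and -0.04 for numbers 1, 2 and 3), and not every library correlated best with its own number. The replicate block left 1766 genes past the test, 874 of them higher and 892 lower, with 0 of the 10 factors (LRPPRC adjusted p = 0.0527, SLIRP 0.0720), 2 mtDNA maintenance genes, 1 RNA processing gene and 1 nucleotide supply gene. Under the block MT-ND6 also missed the threshold (adjusted p = 0.0677), and no other of the 10 factors or mtDNA-encoded genes changed its call. Leaving out each library in turn gave 1322 to 3616 genes (619 to 1882 higher, 681 to 1734 lower), 293 to 452 at 2-fold, 0 to 2 of the 10 factors, 2 to 5 mtDNA maintenance genes, 1 to 6 RNA processing genes, 1 to 2 nucleotide supply genes and 0 to 1 rRNAs. Log2 fold changes then ran from -0.20 to 0.12 for TFB2M, from -0.075 to 0.16 for TWNK (below 0 without shNTC+Dox replicate 1 or 2 or shEHD1+Dox replicate 2) and from -0.0036 to 0.10 for POLG. POLG summed with FANCI gave -0.27. DESeq2 and its size factors, a filter of 10 counts in every library and scaling without mitochondrial rows changed no call or direction of the 10 factors. The cause of these changes was not tested, except that leaving out a library leaves fewer samples. TEFM, with at most 242 counts in a library, had the widest interval of the 10.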
